A study of Rattus norvegicus with 12 samples.

Results

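Fibrotic bronchi of rats exposed to 2,3-pentanedione (PD), a diketone of artificial butter flavoring, were compared with non-fibrotic bronchi of exposed rats. The comparison used the 3 arrays labelled fibrotic (replicates 3, 7 and 9) and the 3 labelled non-fibrotic (replicates 4, 8 and 10), which are 6 of the 12 arrays of the series. Every one of the 31042 probe sets other than the manufacturer's controls was tested, and no control array entered the difference between the groups. Exposed rats were male Wistar-Han rats, 6 to 7 weeks old on arrival, that inhaled 200 ppm PD for 6 h a day on 5 days a week over 2 weeks. The remaining 6 arrays were of bronchi of rats that breathed filtered air, and their level is given as background. Tissue was cut out of frozen sections by laser. A fibrotic capture held the polyp or plaque in the airway lumen together with the lamina propria, muscle and adventitia beneath it, and a non-fibrotic capture held an airway with normal-looking or regenerating epithelium and the same layers beneath, at times mildly inflamed. A capture is thus a mixture of cell types. By the methods, tissue of both kinds came in part from the same lungs, but the labels do not tie arrays to rats. The arrays could therefore not be paired, and the p-values measure only the spread between arrays within the groups, the control arrays included.

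In obliterative bronchiolitis the epithelium of small airways is injured and connective tissue grows into the lumen. The normal bronchial epithelium is made up mainly of multiciliated cells, whose cilia are built on axonemes of microtubules and dynein arms, and of club cells, which secrete protective proteins and carry much of the airway's metabolism of foreign chemicals. Fibrosis is the laying down of collagens, fibronectin, tenascins and other matrix by fibroblasts and myofibroblasts, and growth factors of the transforming growth factor beta (TGF-beta) family, among them activins, are known to drive it. Macrophages are known both to clear debris and to release factors that act on fibroblasts.

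Values are log2 of the MAS5 signal of an array, so that a difference of 1 is a doubling. Values listed in a row are of fibrotic replicates 3, 7 and 9, or of non-fibrotic replicates 4, 8 and 10, in that order. A difference is fibrotic minus non-fibrotic, with its standard error (SE) and a Benjamini-Hochberg adjusted p over all probe sets, and a gene was called at an adjusted p under 0.01. A signal under 6.52 was taken as absent, that being the highest of 36 signals of a bacterial transcript that rat RNA does not hold. A gene was represented by its brightest probe set.

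The arrays of each group were not equally alike. Over all probe sets the 3 fibrotic arrays correlated with each other at r = 0.881 to 0.884 and the 3 non-fibrotic arrays at 0.820 to 0.850. Non-fibrotic replicate 4 stood apart, since it correlated with the fibrotic arrays at 0.846 to 0.856, whereas replicates 8 and 10 did so at 0.746 to 0.762 and 0.771 to 0.800. For each gene list below, calls without it are also counted, in some lists only for the higher genes. Measures of RNA and hybridization are given for both groups. The difference between the 3′ and 5′ probe sets of GAPDH, which widens as RNA is degraded or shortened in amplification, was 1.87 ± 0.27 (SD, n = 3) in fibrotic and 2.19 ± 0.21 (SD, n = 3) in non-fibrotic arrays. In the control arrays, whose level is given as background, the mean was lower, at 1.05 ± 0.51 (SD, n = 6). The share of probe sets under the absent level was 30.1% to 39.5% in fibrotic and 29.4% to 40.02% in non-fibrotic arrays. The spiked bioB transcripts had mean log2 signals of 11.1 to 11.5 in fibrotic and 11.4 to 12.4 in non-fibrotic arrays, the spiked polyA transcripts ranged from 8.02 to 10.7 in fibrotic and 10.4 to 11.1 in non-fibrotic arrays, and the part of such differences in the results was not tested. The control arrays, which enter the estimate of the spread, fell into 2 sets. Control replicates 1 and 2 had polyA signals of 2.31 and 2.33 and correlated with each other and with replicates 3 to 6 at r = 0.874 to 0.897, whereas replicates 3 to 6 had polyA signals of 9.99 to 10.6 and correlated at 0.948 to 0.957.

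Fibrotic and non-fibrotic bronchi differed in a broad set of genes. With all arrays more genes were called lower than higher in the fibrotic tissue. Without non-fibrotic replicate 4 the order was reversed, with 615 genes called higher and 589 lower. Of 14217 genes, 209 were called higher (1.47%) and 544 lower (3.83%) in fibrotic bronchi, with a median difference of 0.0004 over all genes. Among probe sets, 331 of 31042 were called higher (1.07%) and 854 lower (2.75%). The arrays of the groups did not overlap for all 209 genes called higher and for 543 of the 544 called lower, whereas over all genes fibrotic arrays lay above without overlap for 14.1% and below for 13.3%. At an adjusted p under 0.05, 802 genes were higher (5.64%) and 994 lower (6.99%), and among probe sets 1248 (4.02%) and 1722 (5.55%). The median difference was 2.57 among genes called higher and -2.73 among those called lower. For every list below, the shares over all genes, 1.47% higher and 3.83% lower, are the background of its counts with all arrays. For counts without non-fibrotic replicate 4 the background is instead 615 genes higher and 589 lower of 14217. Every called gene kept its sign in all refits of the same probe set in which it was tested. Second probe sets were compared only for genes named in the text. Among the named genes that were called, those of Adam8 and Cdh1 had the opposite sign without being called.

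Many calls of higher genes depended on single arrays. Without fibrotic replicates 3, 7 and 9 and non-fibrotic replicates 4, 8 and 10 in turn, 35, 50, 74, 202, 37 and 40 of the 209 genes were still called, and 358, 414, 428, 490, 337 and 333 of the 544 lower genes. In all 6 of these fits, 19 higher and 288 lower genes were called. With non-fibrotic replicate 4 left out, calls rose to 615 genes higher and 589 lower. A fit of the 6 exposed arrays without controls, which otherwise add to the estimate of the spread, called 34 genes higher and 182 lower, of which 26 and 179 were among those above, and without replicate 4 it called 391 and 242. With control replicates 1 and 2 as the only controls, 65 genes were called higher and 294 lower, and with replicates 3 to 6 as the only controls 281 and 644. Replicate 4 was the non-fibrotic array nearest to the fibrotic mean for 179 of the 209 higher genes and for 319 of the 544 lower ones. Its signal was closer to the fibrotic mean than to the mean of replicates 8 and 10 for 97 of the 209 higher genes and for 17 of the 544 lower genes. The position of replicate 4 was not counted over all genes, so these counts have no background share beside them.

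Air controls lay on the non-fibrotic side for most called genes, more so for genes lower in fibrotic bronchi. The control mean was nearer to the non-fibrotic than to the fibrotic mean for 527 of the 544 lower genes and for 151 of the 209 higher genes. For 344 lower genes it lay above both exposed groups. For 164 higher genes it lay between them, so that the non-fibrotic mean was under the control mean there. These positions were counted among called genes only, and the shares over all genes were not taken.

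**Figure D1:**
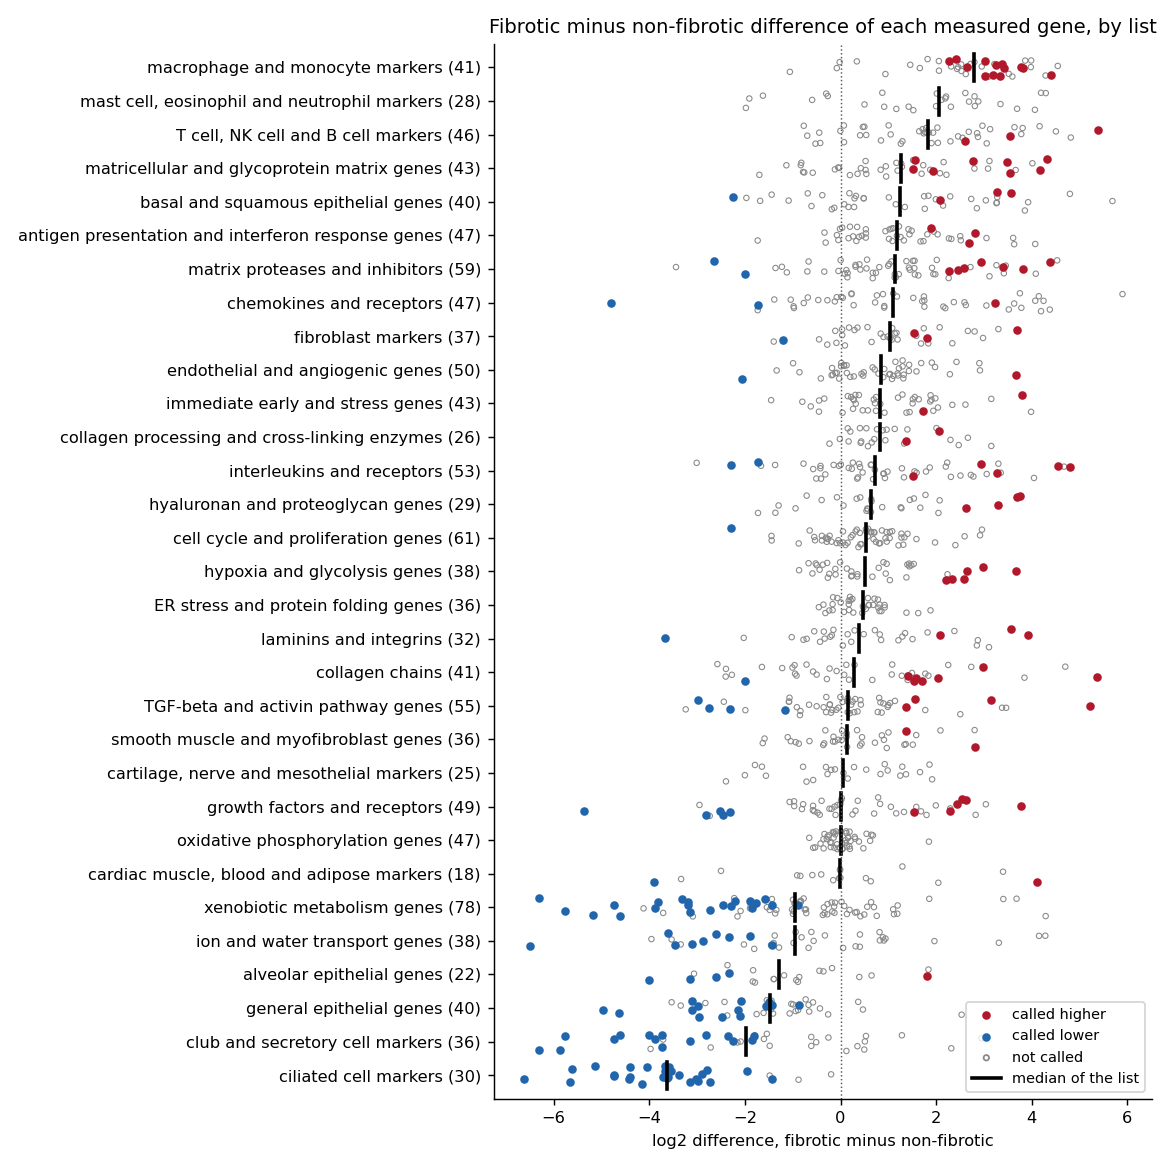
Difference between fibrotic and non-fibrotic bronchi (x axis, log2) for every measured gene of 31 lists of families, pathways and cell type markers (y axis, number measured in brackets). Filled points were called at an adjusted p under 0.01 (red higher, blue lower), open points were not, and the black bar is the median of the list. Ciliated cell markers have the lowest median (-3.62) and macrophage and monocyte markers the highest (2.80).

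Genes of multiciliated cells were lower in fibrotic bronchi almost throughout. Of 30 measured, 27 were called lower (90.0%, against 3.83% of all genes) and none higher, with a median difference of -3.62 (0.0004 over all genes). For 29 genes the fibrotic arrays lay below the non-fibrotic ones without overlap, beside 13.3% of all genes. Foxj1, the transcription factor that starts the program of motile cilia, had log2 signals of 6.80, 7.70 and 8.42 in fibrotic and 12.16, 12.86 and 12.14 in non-fibrotic bronchi, beside 12.07 to 12.94 in controls. The groups were far apart, and the non-fibrotic arrays lay within the control range. The difference was -4.75 (SE 0.35, adjusted p = 1.8e-06), a fold of 26.9. Cfap126, a protein of the axoneme also known as Flattop, shared the smallest adjusted p of all genes with Cfap144. It measured 5.55, 6.45 and 7.27 in fibrotic and 11.64, 12.42 and 12.08 in non-fibrotic bronchi, and the first 2 fibrotic signals were under the absent level. Its difference was -5.62 (SE 0.37, adjusted p = 5.5e-07). Zmynd10, needed to assemble dynein arms, measured 6.14, 7.16 and 9.07 against 12.74, 13.56 and 13.04, a difference of -5.66 (adjusted p = 7.16e-06). Rsph1, a protein of the radial spoke, measured 8.65, 9.49 and 10.14 against 13.19, 13.95 and 13.63, so that it stayed well above the absent level in fibrotic bronchi (difference -4.16, adjusted p = 3.68e-06).

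Tektins, filaments of the axonemal microtubules, fell in the same way. Tekt1 measured 6.74, 7.37 and 8.22 in fibrotic and 11.48, 11.80 and 11.18 in non-fibrotic bronchi (difference -4.04, SE 0.31, adjusted p = 2.23e-06). Tekt2 and Tekt4 differed by -3.02 and -3.61 (adjusted p = 0.00034 and 7.72e-06). Regulators acting beside Foxj1 were lower as well, namely Rfx2 (-3.55, adjusted p = 0.000132), Rfx3 (-2.89, 0.000214) and Myb (-4.41, 0.000599), the last of which acts early in the differentiation of multiciliated cells. Intraflagellar transport genes, which other cells with a primary cilium also use, had smaller differences, of -1.95 for Ift57 and -1.44 for Ift88 (adjusted p = 0.000152 and 0.00348). In fibrotic replicate 9 the median signal of the list was 8.01, against 6.14 and 7.35 in replicates 3 and 7 and 10.71, 11.45 and 11.14 in the non-fibrotic arrays. Fewer cells of a type and less RNA per cell cannot be told apart in such captures. Without fibrotic replicates 3, 7 and 9 and non-fibrotic replicates 4, 8 and 10 in turn, 24, 25, 27, 27, 23 and 23 of the 27 were still called, 23 of them in every fit.

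Promoters of 3 called axonemal genes are shown because they hold a site of RFX factors, the family that works with Foxj1 at genes of cilia. The motif searched was GTTGCCA on both strands, in capitals below, within 300 bases that reach from 250 before to 50 after the start of the gene in the rat assembly GRCr8 (RefSeq). Tekt1 lies on chr10:57479072-57479371 (minus strand), Lrrc23 on chr4:159277715-159278014 (minus strand) and Drc1 on chr6:31779207-31779506 (minus strand), and the sequences read 5′ to 3′ along the gene.
Tekt1: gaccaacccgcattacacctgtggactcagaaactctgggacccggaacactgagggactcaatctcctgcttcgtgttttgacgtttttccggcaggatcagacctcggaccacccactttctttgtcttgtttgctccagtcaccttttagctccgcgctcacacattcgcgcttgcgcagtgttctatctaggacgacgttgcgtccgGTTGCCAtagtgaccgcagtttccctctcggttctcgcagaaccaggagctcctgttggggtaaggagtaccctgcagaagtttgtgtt
Lrrc23: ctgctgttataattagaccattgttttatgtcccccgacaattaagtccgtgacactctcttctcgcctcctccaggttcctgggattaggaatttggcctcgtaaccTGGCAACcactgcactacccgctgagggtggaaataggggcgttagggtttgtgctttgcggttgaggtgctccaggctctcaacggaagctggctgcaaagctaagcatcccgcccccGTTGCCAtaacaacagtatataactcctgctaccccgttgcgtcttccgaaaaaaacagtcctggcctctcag
Drc1: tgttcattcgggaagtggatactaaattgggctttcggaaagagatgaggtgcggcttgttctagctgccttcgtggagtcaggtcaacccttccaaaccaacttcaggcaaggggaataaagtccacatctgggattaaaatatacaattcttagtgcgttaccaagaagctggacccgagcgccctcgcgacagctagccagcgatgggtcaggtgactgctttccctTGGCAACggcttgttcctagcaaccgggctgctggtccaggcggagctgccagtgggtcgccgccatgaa
The match began 39 bases before the start of Tekt1 and 20 before that of Drc1, and Lrrc23 held a match at 142 and another at 23. Lrrc23, a protein of the radial spoke, had log2 signals of 7.31, 8.21 and 8.45 in fibrotic and 11.54, 12.01 and 11.54 in non-fibrotic bronchi (difference -3.71, adjusted p = 2.11e-06). Drc1, a subunit of the nexin-dynein regulatory complex, measured 4.35, 5.49 and 6.71 and 9.20, 8.64 and 9.73 (difference -3.67, adjusted p = 0.000393). Among genes whose symbol had a single promoter, the motif stood in 38 of 410 promoters of genes called lower (9.27%) and in 7 of 151 of genes called higher (4.64%). Over all 33469 promoters the share was 4.56%, and over the 10945 such promoters of measured genes it was 3.93%. A match is a description of sequence and not a known binding site.

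Club cell and secretory genes were lower in part, by amounts that ranged widely between genes. Of 36 measured, 15 were called lower and none higher, with a median difference of -1.97. Ces1d, a carboxylesterase, had log2 signals of 5.02, 9.47 and 6.87 in fibrotic and 12.99, 14.03 and 13.25 in non-fibrotic bronchi, beside 13.04 to 13.64 in controls. Fibrotic replicate 3 was under the absent level and replicate 7 was the highest of the fibrotic arrays. The difference was -6.30 (SE 0.69, adjusted p = 4.82e-05). Sec14l3, a lipid transfer protein of the airway epithelium, measured 4.72, 7.17 and 6.21 against 10.95, 12.75 and 12.01 (difference -5.87, adjusted p = 3.68e-06), and Cyp4b1, a lung cytochrome P450, 6.37, 8.82 and 3.93 against 11.90, 12.43 and 12.09 (difference -5.77, adjusted p = 0.000445). Scgb1a1, the club cell secretory protein, remained bright in fibrotic bronchi. It measured 12.55, 13.70 and 12.34 in them and 14.73, 15.37 and 15.22 in non-fibrotic bronchi, beside 13.98 to 15.22 in controls, a difference of -2.24 (SE 0.35, adjusted p = 0.000737). Pigr, which carries immunoglobulin A across the epithelium, differed by -3.74 (adjusted p = 0.00123) and Wfdc2 by -1.81 (0.000526). Spdef, a transcription factor of secretory cells, was under the absent level in all fibrotic arrays, so that it was lower by at least 2.75-fold (adjusted p = 0.00181). Of the 15, leaving out fibrotic replicates 3, 7 and 9 and non-fibrotic replicates 4, 8 and 10 in turn kept 13, 14, 13, 14, 12 and 13, and without non-fibrotic replicate 4 the list had 16 called lower and 1 higher.

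Enzymes of xenobiotic metabolism were lower in a subset. Of 78 measured, 21 were called lower and none higher, with a median difference of -0.96, or -0.54 with signals under the absent level set to it, and several of those called also stand in the secretory list. Gsta1, a glutathione S-transferase, measured 9.43, 9.19 and 8.14 in fibrotic and 12.26, 13.07 and 12.88 in non-fibrotic bronchi (difference -3.82, SE 0.29, adjusted p = 2.24e-06). The groups did not overlap, and the same held for Gstm1 (-2.72, adjusted p = 1.71e-05), Gstm2 (-1.86, 0.000141) and Gsta3, which was under the absent level in every fibrotic array and at least 8.16-fold lower (0.000225). Ephx1, the microsomal epoxide hydrolase, measured 8.65, 8.76 and 8.52 against 12.18, 12.03 and 11.29 (difference -3.19, adjusted p = 0.000151). Nqo1, a quinone reductase that the factor Nrf2 regulates, measured 10.00, 10.47 and 9.41 against 12.38, 12.46 and 12.42, beside 11.34 to 12.71 in controls (difference -2.46, adjusted p = 0.000224). Aldh1a1 and Pon3 differed by -3.89 and -3.18 (adjusted p = 0.000432 and 2.88e-05). Cyp2a3 was not called, with 4.40, 2.94 and 4.11 in fibrotic bronchi and 3.62, 9.64 and 9.32 in non-fibrotic ones, where replicate 4 was as low as the fibrotic arrays (adjusted p = 0.0375). Without fibrotic replicates 3, 7 and 9 and non-fibrotic replicates 4, 8 and 10 in turn, 18, 17, 16, 19, 16 and 18 of the 21 were still called, and without non-fibrotic replicate 4 the list had 21 called lower and 2 higher.

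Genes that most epithelial cells share had a smaller median difference than those of ciliated cells, and some of the defining markers did not pass the test. Of 40 general epithelial genes, 14 were called lower and none higher (median difference -1.47). Epcam, an adhesion molecule of epithelia, measured 11.46, 11.96 and 12.64 in fibrotic and 12.65, 13.40 and 13.19 in non-fibrotic bronchi (difference -1.06, adjusted p = 0.0215, not called). Krt8 and Krt18, keratins of simple epithelium, differed by -0.58 (95% interval -1.12 to -0.04) and -0.73 (-1.57 to 0.11), neither called. Cdh1, the epithelial cadherin, measured 11.26, 11.30 and 11.42 in fibrotic and 12.35, 12.08 and 12.18 in non-fibrotic bronchi (-0.88, adjusted p = 0.00711), a call lost without any 1 of the 6 arrays, and its second probe set differed by 0.69 the other way. Transcription factors that define lung epithelium had larger differences. Foxa2 measured 2.86, 6.28 and 4.66 in fibrotic and 9.42, 9.40 and 9.86 in non-fibrotic bronchi, all fibrotic signals being under the absent level, so that it was lower by at least 8.23-fold (adjusted p = 0.000188). Sox2, a factor of the conducting airways, measured 7.35, 7.08 and 8.74 against 10.67, 10.63 and 11.21 (difference -3.11, adjusted p = 0.00016), and Nkx2-1 7.35, 9.10 and 8.11 against 11.24, 11.09 and 11.19 (difference -2.99, adjusted p = 0.00488), a call that held in 1 of the 6 fits that left out an array. The splicing factor Esrp1, which sets epithelial isoforms, differed by -2.09 (adjusted p = 1.9e-05). Of the 14, 10, 13, 11, 11, 9 and 11 were still called without fibrotic replicates 3, 7 and 9 and non-fibrotic replicates 4, 8 and 10, and without non-fibrotic replicate 4 the list had 12 called lower and 1 higher.

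**Figure D2:**
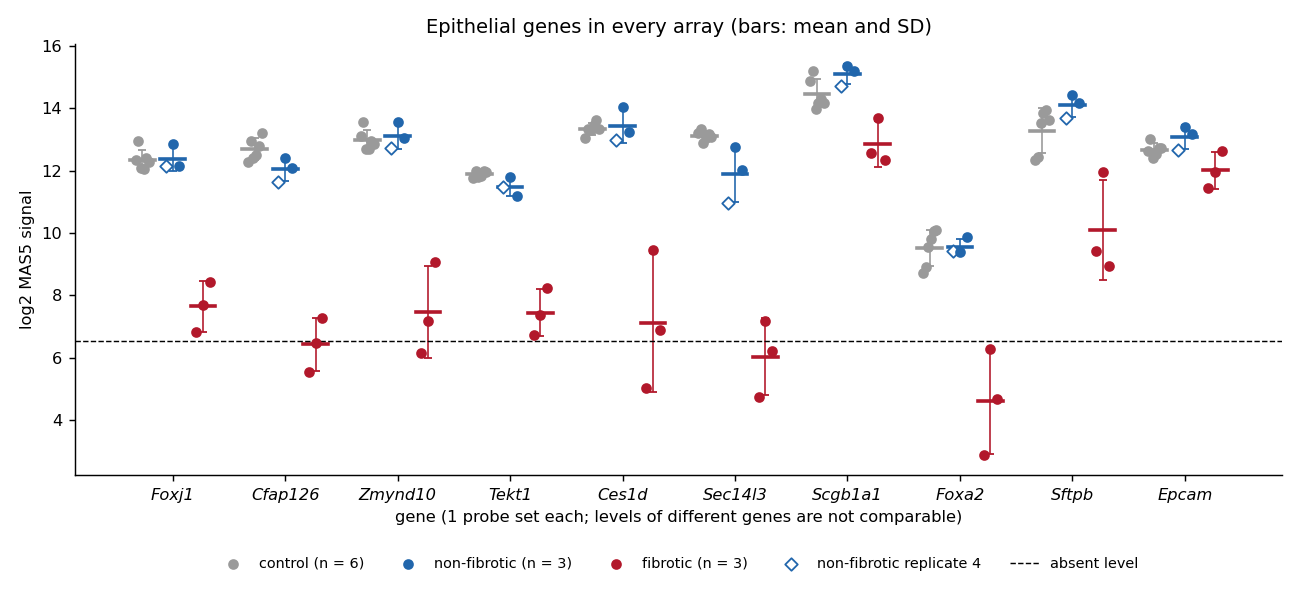
Log2 MAS5 signal (y axis) of 10 epithelial genes (x axis) in every array, with the mean and SD of each group. Fibrotic arrays (red) lie below all non-fibrotic (blue, replicate 4 as an open diamond) and control arrays (grey) for every gene shown except Epcam, in which they lie below the non-fibrotic arrays but within the control range in part.

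Several channels and transporters of the airway surface were lower. Of 38 ion and water transport genes, 9 were called lower and none higher (median difference -0.96, or -0.33 with signals under the absent level set to it). Slc15a2, a peptide transporter, measured 1.51, 4.87 and 4.58 in fibrotic and 9.44, 10.82 and 10.19 in non-fibrotic bronchi, so that it was lower by at least 12.4-fold (adjusted p = 3.44e-05). Aqp4, a water channel, measured 8.08, 7.45 and 7.87 against 11.06, 11.58 and 11.15, the fibrotic arrays lying within 1 unit of each other and below all others (difference -3.47, adjusted p = 3.34e-06). Scnn1a, a subunit of the epithelial sodium channel, and Ano1, a calcium-activated chloride channel, differed by -3.11 and -1.90 (adjusted p = 0.000671 and 0.00176). Nkain1, which interacts with the sodium pump, went the other way without being called, with 10.82, 10.70 and 11.07 in fibrotic and 8.35, 3.38 and 8.40 in non-fibrotic bronchi (adjusted p = 0.0186). Of the 9, 6, 8, 9, 9, 8 and 5 were still called without fibrotic replicates 3, 7 and 9 and non-fibrotic replicates 4, 8 and 10, and without non-fibrotic replicate 4 the list had 9 called lower and 2 higher.

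Alveolar genes, which border the captured bronchi or are shared with bronchiolar cells, were mixed. Of 22 measured, 4 were called lower and 1 higher (median difference -1.29). Sftpb, a surfactant protein that club cells also make, measured 9.41, 11.94 and 8.94 in fibrotic and 13.70, 14.42 and 14.16 in non-fibrotic bronchi (difference -4.00, adjusted p = 0.000612). Sftpc, which marks alveolar type II cells, was scattered, with 7.51, 14.17 and 11.28 in fibrotic and 13.52, 12.99 and 13.53 in non-fibrotic bronchi (adjusted p = 0.239). Fibrotic replicate 7 was thus above every non-fibrotic array, and replicate 3 far below. Ager, of type I cells, measured 7.23, 7.92 and 6.77 against 9.17, 8.42 and 9.84 (adjusted p = 0.0409). Pdpn, which fibroblasts and lymphatic vessels express as well as type I cells, was the gene called higher, with 11.76, 11.93 and 11.46 against 10.70, 9.51 and 9.52 (difference 1.81, adjusted p = 0.00327). Of the 4 lower genes 3, 4, 4, 4, 4 and 3 were still called without fibrotic replicates 3, 7 and 9 and non-fibrotic replicates 4, 8 and 10. Leaving out fibrotic replicate 3, fibrotic replicate 7, non-fibrotic replicate 8 or non-fibrotic replicate 10 ended the call of Pdpn, and without non-fibrotic replicate 4 the list had 4 called lower and 2 higher.

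Some basal and squamous epithelial genes were high in individual fibrotic arrays. Of 40 measured, 3 were called higher (7.5%, against 1.47% of all genes) and 1 lower (2.5%, against 3.83%). The median difference was 1.25, or 0.55 with signals under the absent level set to it. Krt5, the keratin of basal cells, measured 4.59, 2.44 and 12.41 in fibrotic and 3.52, 5.94 and 3.54 in non-fibrotic bronchi, so that among exposed arrays it was present only in replicate 9, while controls ranged from 2.81 to 10.01 (adjusted p = 0.624). Krt14, its partner, measured 8.56, 9.17 and 12.45 against 7.11, 6.10 and 7.15 and was highest in the same array (adjusted p = 0.211). Tp63, the basal cell transcription factor, was highest in that array as well, with 6.11, 6.54 and 8.71 against 6.88, 2.90 and 6.33 (adjusted p = 0.412). Tgm1, a transglutaminase of squamous cells, was above every non-fibrotic array in all fibrotic ones, with 10.14, 10.46 and 8.81 against 8.38, 6.82 and 4.37, but was not called (difference 3.28, SE 1.44, adjusted p = 0.179). The genes called higher were Il1rn, Itga6 and Stra6, of which Il1rn encodes the interleukin 1 receptor antagonist and Itga6 an integrin that binds laminin. The gene called lower was Perp, of desmosomes (-2.24, adjusted p = 0.00143), a call lost without non-fibrotic replicate 8 or 10. All 3 higher calls were lost without fibrotic replicate 3, fibrotic replicate 7 or non-fibrotic replicate 10, 1 remained without non-fibrotic replicate 8 and 2 without fibrotic replicate 9, and without non-fibrotic replicate 4 the list had 8 called higher.

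Chains of type I and III collagen were not called, whereas chains of types V and VI were. Of 41 collagen chains, 7 were called higher (17.1%, against 1.47% of all genes) and 1 lower (2.44%, against 3.83%). The median difference was 0.29, or 0.08 with signals under the absent level set to it. Col1a1, the main chain of type I collagen, measured 14.12, 14.45 and 14.59 in fibrotic and 14.22, 14.24 and 13.82 in non-fibrotic bronchi, beside 13.14 to 14.17 in controls, and the difference was 0.29 (95% interval -0.25 to 0.83, adjusted p = 0.543). Col3a1 measured 13.86, 14.21 and 14.18 against 13.88, 14.13 and 13.70, a difference of 0.18 (95% interval -0.24 to 0.59, adjusted p = 0.643). Both intervals leave out a doubling. Col6a1, a chain of the beaded filaments around cells, measured 12.55, 12.43 and 12.70 against 11.52, 10.78 and 10.78, and every fibrotic array was higher (difference 1.53, SE 0.26, adjusted p = 0.0017). Col6a2 differed by 1.58 (0.00311), and Col5a1 and Col5a2, which regulate the width of type I fibrils, by 1.71 and 1.42 (adjusted p = 0.00358 and 0.00474). The chain called lower was Col13a1, with 6.18, 7.07 and 6.60 against 8.58, 7.89 and 9.37 (adjusted p = 0.00707). Among the fits that left out an array, this call remained only without fibrotic replicate 7 or non-fibrotic replicate 8. Col14a1 and Col15a1 were called higher as well, the latter with 11.92, 12.27 and 12.35 against 11.48, 8.09 and 8.01 (difference 2.99, adjusted p = 0.0082). Col18a1, whose fragment is endostatin, measured 10.22, 8.76 and 9.84 against 7.51, 2.28 and 2.94. Its control range was 6.94 to 9.75, so that non-fibrotic replicates 8 and 10 lay far below the controls (difference 5.36, or 2.76 with signals under the absent level set to it, adjusted p = 0.00374).

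Enzymes of collagen processing had 2 of 26 called higher and none lower (median difference 0.82). They were Serpinh1, the collagen chaperone, with 12.25, 12.64 and 12.61 against 11.57, 11.20 and 10.65 (difference 1.36, adjusted p = 0.00286), and Pcolce, which enhances the trimming of procollagen (2.07, 0.00398). Of the 7 collagens called higher, 3, 3, 1, 7, 0 and 0 remained without fibrotic replicates 3, 7 and 9 and non-fibrotic replicates 4, 8 and 10, and of the 2 processing enzymes 2, 0, 0, 2, 0 and 1. Without replicate 4, the collagen and processing lists had 10 and 7 called higher.

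Some matricellular glycoproteins, which are matrix proteins that act on cells more than they bear load, were higher in fibrotic bronchi. Of 43 measured, 8 were called higher and none lower (median difference 1.27), and 10 had a difference below 0. Fn1, fibronectin, measured 12.84, 12.74 and 13.22 in fibrotic and 11.52, 7.56 and 9.27 in non-fibrotic bronchi, beside 7.44 to 9.63 in controls. Replicate 4 was within 2 units of the fibrotic arrays while replicates 8 and 10 were in the control range. The difference was 3.49 (SE 0.72, adjusted p = 0.00618). Tnc, tenascin-C, measured 13.15, 13.16 and 13.36 against 11.94, 6.92 and 8.32, with controls at 7.93 to 10.50 (difference 4.16, SE 0.90, adjusted p = 0.00826). Postn, periostin, measured 12.50, 11.74 and 13.84 against 10.57, 7.56 and 9.35 (difference 3.54, adjusted p = 0.0045). The 3 genes have the same order of arrays on the non-fibrotic side, with replicate 4 highest and replicate 8 lowest. Thbs2 and Thbs4, thrombospondins, differed by 2.76 and 4.32 (adjusted p = 0.00994 and 0.00392), the latter by 2.77 with signals under the absent level set to it. Tgfbi, Fbln1 and Ltbp2 completed the list of those called, with 1.94, 1.52 and 1.56.

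Other matrix glycoproteins lay above the non-fibrotic arrays without being called. Spp1, osteopontin, measured 11.57, 10.77 and 11.73 in fibrotic and 10.45, 7.62 and 7.60 in non-fibrotic bronchi, and the groups did not overlap (difference 2.80, SE 0.75, adjusted p = 0.0265). Tnn, tenascin-N, measured 8.43, 7.73 and 10.83 against 5.70, 7.48 and 1.77 (adjusted p = 0.111). Of the 8 matricellular genes called, 2, 2, 1, 8, 0 and 2 remained without fibrotic replicates 3, 7 and 9 and non-fibrotic replicates 4, 8 and 10. Without replicate 4 the list had 13 called higher.

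Genes of hyaluronan, the large matrix sugar of early repair, included a higher gene that was called under every alternative. Of 29 hyaluronan and proteoglycan genes, 4 were called higher and none lower (median difference 0.64). Tnfaip6, which links hyaluronan to inter-alpha-inhibitor and is induced by inflammatory signals, measured 9.00, 10.72 and 10.06 in fibrotic and 7.01, 5.23 and 6.31 in non-fibrotic bronchi, beside 5.12 to 6.34 in controls. All non-fibrotic signals lay near or below the absent level. The difference was 3.75 (SE 0.60, adjusted p = 0.000994), and Tnfaip6 was called in all 20 alternatives of the fit. Has2, the main hyaluronan synthase of mesenchymal cells, measured 10.37, 11.55 and 9.47 against 8.68, 6.27 and 6.54 (difference 3.30, adjusted p = 0.00656). Lum, lumican, a small proteoglycan that binds collagen fibrils, measured 12.53, 12.42 and 13.51 against 10.91, 8.40 and 8.06 (difference 3.69, adjusted p = 0.00934). The other called gene was Srgn, a proteoglycan of secretory granules (2.63, adjusted p = 0.00424). Dcn, decorin, was above every non-fibrotic array but not called (2.07, adjusted p = 0.0875). Of the 4, 1, 1, 2, 4, 1 and 1 remained without fibrotic replicates 3, 7 and 9 and non-fibrotic replicates 4, 8 and 10, Tnfaip6 being the one that remained in every fit, and without replicate 4 the list had 7 called higher.

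Integrins and laminins gave 3 genes higher (9.38%, against 1.47% of all genes) and 1 lower (3.12%, against 3.83%) of 32 measured. The median difference was 0.39. Itgb3, the beta subunit of a receptor for fibronectin and vitronectin, measured 11.75, 11.38 and 12.04 in fibrotic and 9.87, 6.20 and 7.31 in non-fibrotic bronchi (difference 3.93, adjusted p = 0.00273). Itgal, an integrin of leukocytes, and Itga6, of epithelium, were the others called higher (3.56 and 2.08, adjusted p = 0.00452 and 0.0045). Lamc3 was lower and under the absent level in all fibrotic arrays, with 6.49, 6.24 and 4.05 against 8.60, 10.01 and 9.20, or at least 6.74-fold lower (adjusted p = 0.00108). Lamc3 was called in every fit that left out an array, whereas none of the 3 higher genes was called without fibrotic replicate 3 or non-fibrotic replicate 10, and 1 was without fibrotic replicate 7, fibrotic replicate 9 or non-fibrotic replicate 8. The list had 8 called higher without non-fibrotic replicate 4.

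Of 59 proteases and inhibitors of the matrix, 7 were called higher (11.9%, against 1.47% of all genes) and 2 lower (3.39%, against 3.83%). The median difference was 1.14, or 0.67 with signals under the absent level set to it. Both plasminogen activators were among the higher genes. Plau, the urokinase plasminogen activator, measured 12.81, 12.84 and 12.76 in fibrotic and 11.42, 9.34 and 8.80 in non-fibrotic bronchi, beside 8.18 to 9.84 in controls. The fibrotic arrays were within 0.1 of each other. The difference was 2.95 (SE 0.55, adjusted p = 0.00309). Plat, the tissue-type activator, measured 12.38, 12.41 and 11.12 against 10.68, 8.56 and 8.89 (difference 2.59, adjusted p = 0.00456). Plaur, the urokinase receptor, measured 8.37, 9.79 and 8.17 against 7.42, 1.86 and 3.46 and was not called (adjusted p = 0.0256). Timp1, an inhibitor of metalloproteinases, measured 12.48, 12.76 and 11.56 against 11.06, 6.16 and 6.44, with replicate 4 near the fibrotic arrays and replicates 8 and 10 under the absent level and under every control (difference 4.38, adjusted p = 0.00589). The others called higher were Serping1, A2m, Ctss and Htra1, the last at 3.40 (adjusted p = 0.00176). Mmp15 and Adam8 were lower, by -2.64 and -1.99 (adjusted p = 0.00398 and 0.00011), and a second probe set of Adam8 differed by 0.39. Adam8 was called in every fit that left out an array, and Mmp15 only without fibrotic replicate 7 or non-fibrotic replicate 4. Of the 7, 1, 2, 3, 7, 0 and 0 remained without fibrotic replicates 3, 7 and 9 and non-fibrotic replicates 4, 8 and 10, and without replicate 4 the list had 17 called higher.

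**Figure D3:**
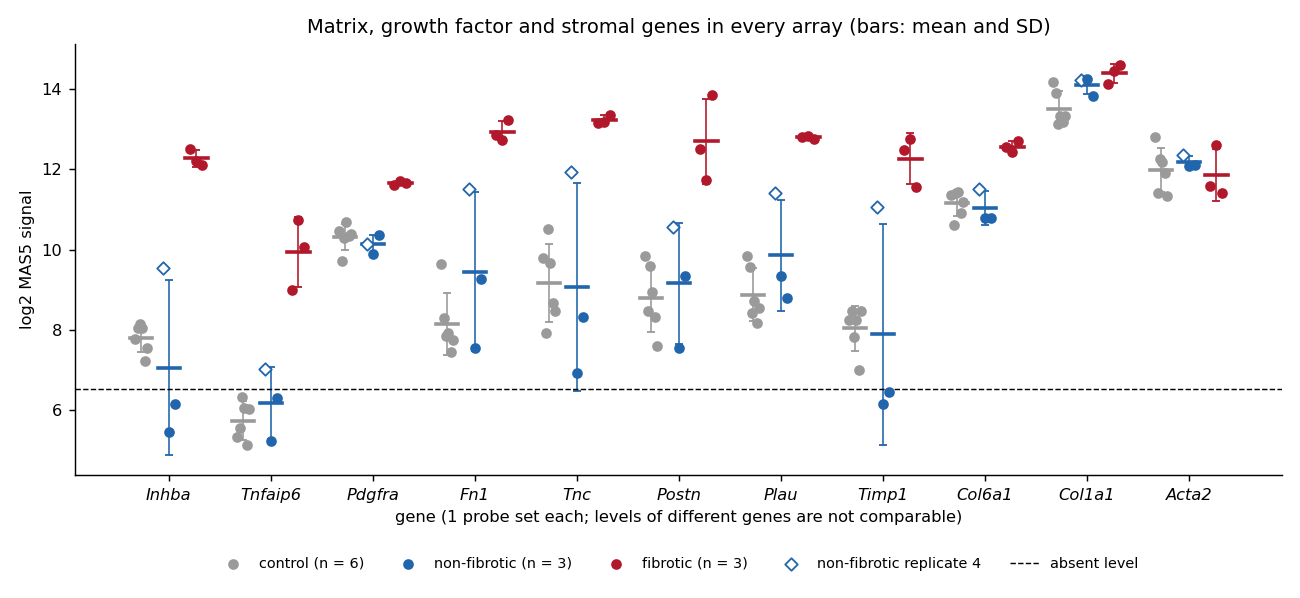
Log2 MAS5 signal (y axis) of 11 matrix, growth factor and stromal genes (x axis) in every array, with the mean and SD of each group. For Fn1, Tnc, Plau and Timp1 the open diamond, non-fibrotic replicate 4, lies between the fibrotic arrays (red) and the other non-fibrotic arrays (blue), and for Col1a1 and Acta2 the groups overlap.

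Defining markers of smooth muscle were not called, and of the fibroblast markers few were. Of 36 smooth muscle and myofibroblast genes, 2 were called higher (5.56%, against 1.47% of all genes) and none lower (against 3.83%). The median difference was 0.13. Fibrotic arrays lay above without overlap for 8 and below for 4, beside 14.1% and 13.3% over all genes. Acta2, the smooth muscle actin that also marks myofibroblasts, measured 11.57, 12.61 and 11.41 in fibrotic and 12.35, 12.08 and 12.11 in non-fibrotic bronchi (difference -0.32, 95% interval -1.07 to 0.44, adjusted p = 0.651). Myh11, the myosin of mature smooth muscle, differed by -0.05 (95% interval -1.11 to 1.01). Des and Cnn1 were not called either (0.14 and -1.10). The called genes were Cald1 (1.38, adjusted p = 0.00913), a caldesmon that many contractile cells share, and Pdlim7 (2.81, 0.00988). Among 37 fibroblast markers 3 were called higher (8.11%) and 1 lower (2.7%), with a median difference of 1.04. Pdgfra, the receptor of platelet-derived growth factor on fibroblasts, measured 11.61, 11.70 and 11.66 in fibrotic and 10.13, 9.90 and 10.35 in non-fibrotic bronchi, beside 9.71 to 10.70 in controls. Its arrays lay within 0.5 of each other in each exposed group. The difference was 1.53 (SE 0.26, adjusted p = 0.00143), and it was called in every fit that left out an array, the only fibroblast marker to be so. Lum and Pdpn were the others, and Gsn was lower (-1.20, adjusted p = 0.00422). Among the fits that left out an array, Gsn was called only without fibrotic replicate 7 or non-fibrotic replicate 4. Neither smooth muscle call remained without any 1 of fibrotic replicates 3, 7 and 9 and non-fibrotic replicates 8 and 10, and without replicate 4 the lists had 5 and 10 called higher.

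Promoters of Tnfaip6 and Pdgfra are shown because they hold the AP-1 site that was searched, TGANTCA, in capitals. Both are among the 19 higher genes called whichever array was left out, and the share of those with the site was not counted. AP-1 is made of Fos and Jun proteins, which stress and growth signals induce. The motif reads the same on both strands, and in no promoter did it overlap with the RFX site. Tnfaip6 lies on chr3:56911148-56911447 (plus strand) and Pdgfra on chr14:33408467-33408766 (minus strand) of GRCr8.
Tnfaip6: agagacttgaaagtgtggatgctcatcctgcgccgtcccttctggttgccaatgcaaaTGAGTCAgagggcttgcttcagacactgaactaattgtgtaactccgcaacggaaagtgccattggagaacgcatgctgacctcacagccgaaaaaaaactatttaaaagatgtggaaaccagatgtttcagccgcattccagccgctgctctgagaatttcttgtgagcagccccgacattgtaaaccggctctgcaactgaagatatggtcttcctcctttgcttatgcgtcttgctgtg
Pdgfra: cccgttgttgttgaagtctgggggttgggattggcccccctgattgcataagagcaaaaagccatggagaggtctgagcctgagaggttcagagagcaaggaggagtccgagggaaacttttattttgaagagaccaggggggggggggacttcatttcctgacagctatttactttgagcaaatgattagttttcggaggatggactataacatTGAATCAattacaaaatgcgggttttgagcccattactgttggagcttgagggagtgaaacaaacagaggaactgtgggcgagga
The match began 192 bases before the start of Tnfaip6 and 35 before that of Pdgfra. The promoter of Tnfaip6 also held the RFX motif GTTGCCA, left in lower case, which began 206 bases before the start, and the other promoters shown held only the motif in capitals. Among genes whose symbol had a single promoter it stood in 19 of 151 of those called higher (12.6%) and in 30 of 410 of those called lower (7.32%). The share over all 33469 promoters was 7.33% and over the 10945 such promoters of measured genes 5.49%. Here too a match is a description of sequence and not a known binding site.

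Within the TGF-beta family, the activin subunit Inhba was higher and the TGF-beta ligand Tgfb2 was not called. Of 55 genes of the TGF-beta and activin pathway, 4 were called higher and 4 lower (median difference 0.15). Inhba, the subunit that forms activin A, measured 12.51, 12.20 and 12.09 in fibrotic and 9.54, 5.47 and 6.15 in non-fibrotic bronchi, beside 7.21 to 8.14 in controls. Fibrotic arrays were high and alike, and non-fibrotic replicates 8 and 10 were under every control. The difference was 5.21 (SE 0.71, or 4.74 with signals under the absent level set to it, adjusted p = 0.000276). Without non-fibrotic replicate 4 the difference was 6.46 (adjusted p = 9.02e-07, with a range of 9.02e-07 to 0.0125 over all alternatives). Tgfbr1, the type I receptor, measured 11.87, 11.23 and 11.06 against 10.09, 9.72 and 10.27 (difference 1.36, adjusted p = 0.00472). Nrros, which anchors latent TGF-beta on macrophages, and Ltbp2 were also higher (3.15 and 1.56). Tgfb2 measured 9.97, 10.07 and 9.69 against 9.13, 9.03 and 9.06, and although the groups did not overlap the adjusted p was 0.142 (difference 0.84, SE 0.34).

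Bmp4 and Bmp5 were lower, bone morphogenetic proteins whose branch of the family often opposes TGF-beta. Bmp4 measured 9.12, 10.47 and 8.21 in fibrotic and 11.42, 11.61 and 11.69 in non-fibrotic bronchi (difference -2.30, adjusted p = 0.00253) and Bmp5 6.61, 8.04 and 7.85 against 9.80, 10.44 and 10.52 (difference -2.75, adjusted p = 0.00103). Id4, a target of their signaling, measured 8.48, 9.49 and 8.92 against 11.16, 12.38 and 12.31 (difference -2.99, adjusted p = 0.000167). Inhbb, the other activin subunit, was lower by 1.15 (adjusted p = 0.00793), so that Inhba and Inhbb moved in opposite directions. Inhba, Bmp5 and Id4 were called in every fit that left out an array. Of the 4 higher genes 1, 1, 3, 4, 1 and 3 remained without fibrotic replicates 3, 7 and 9 and non-fibrotic replicates 4, 8 and 10, and of the 4 lower genes 2, 3, 4, 3, 2 and 2.

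Other growth factors and receptors moved both ways. Of 49 measured, 6 were called higher and 5 lower (median difference 0.01). Igf1, insulin-like growth factor 1, measured 11.54, 12.12 and 11.65 in fibrotic and 10.58, 8.19 and 9.64 in non-fibrotic bronchi (difference 2.30, adjusted p = 0.00518). Its binding proteins split, with Igfbp4 higher (2.63, adjusted p = 0.00776) and Igfbp2 and Igfbp3 lower. Igfbp2 measured 5.75, 6.52 and 7.64 against 10.74, 13.02 and 12.23, beside 6.62 to 10.09 in controls, so that the non-fibrotic arrays were above the controls (difference -5.36, adjusted p = 0.00153). Igfbp3 differed by -2.52 (0.00105). Egfr, the epidermal growth factor receptor, measured 10.30, 10.09 and 10.45 against 7.66, 6.69 and 9.20 (difference 2.43, adjusted p = 0.00583). The fibroblast growth factor receptors Fgfr3 and Fgfr2 and the ligand Fgf1 were lower, by -2.45, -2.81 and -2.32 (adjusted p = 0.000172, 0.00293 and 0.000203). Csf1, the macrophage colony-stimulating factor, and its receptor Csf1r were both higher. Csf1 measured 10.21, 10.29 and 9.60 against 7.65, 6.54 and 8.30 (difference 2.53, adjusted p = 0.00219) and Csf1r 10.97, 11.52 and 10.50 against 9.51, 6.28 and 5.88 (difference 3.77, adjusted p = 0.00249). Of the 6 higher genes 1, 1, 3, 5, 2 and 3 remained without fibrotic replicates 3, 7 and 9 and non-fibrotic replicates 4, 8 and 10, and of the 5 lower genes 3, 5, 4, 5, 3 and 3. The list had 7 called higher and 6 lower without non-fibrotic replicate 4.

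Macrophage and monocyte markers had the highest median of all lists. Of 41 measured, 13 were called higher and none lower, with a median difference of 2.80, and for 30 the fibrotic arrays lay above all non-fibrotic ones (14.1% over all genes). Cd68, a lysosomal protein of macrophages, measured 11.79, 11.10 and 10.29 in fibrotic and 10.02, 6.54 and 6.36 in non-fibrotic bronchi, beside 7.52 to 8.75 in controls. Replicate 4 was close to the fibrotic arrays, and replicates 8 and 10 were at or under the absent level and below every control. The difference was 3.42 (SE 0.72, adjusted p = 0.00737). C1qc, a subunit of complement C1q, measured 11.20, 12.21 and 10.95 against 10.05, 7.39 and 7.88 (difference 3.01, adjusted p = 0.00337), and Laptm5 12.20, 12.03 and 11.77 against 10.10, 7.28 and 8.50 (difference 3.37, adjusted p = 0.00254). Genes of the phagocyte oxidase were among those called, with Cybb at 3.18 and Ncf4 at 4.40 (adjusted p = 0.00511 and 0.00479), the latter at 2.79 with signals under the absent level set to it. Cd163, a scavenger receptor, was above all non-fibrotic arrays but not called (2.95, adjusted p = 0.0319). The list's median signal was 10.97, 10.77 and 9.84 in fibrotic bronchi and 9.20, 6.54 and 7.60 in non-fibrotic bronchi, beside 8.03 for controls, so that replicates 8 and 10 were under the control level and replicate 4 over it. None of the 13 remained called without fibrotic replicate 3, fibrotic replicate 7, non-fibrotic replicate 8 or non-fibrotic replicate 10, whereas 9 remained without fibrotic replicate 9, and without non-fibrotic replicate 4 the list had 26 called.

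Granulocyte, mast cell and lymphocyte markers had positive median differences and few calls. None of 28 mast cell, eosinophil and neutrophil markers was called by limma at 0.01 (median difference 2.06, or 0.57 with signals under the absent level set to it). Of these, 14 had an unadjusted p under 0.05, beside 7192 of all 31042 probe sets. An adjusted p under 0.05 was found for 9, all higher. Cpa3, a mast cell carboxypeptidase, measured 9.31, 10.11 and 10.98 in fibrotic and 7.32, 8.01 and 6.41 in non-fibrotic bronchi (adjusted p = 0.0255). S100a9, a calcium-binding protein of neutrophils, measured 11.51, 11.27 and 11.29 against 9.97, 6.73 and 7.33, with controls at 8.09 to 12.13 (adjusted p = 0.0201). Without non-fibrotic replicate 4, 5 of the 28 were called higher, among them S100a9 (adjusted p = 0.00238, between 0.000136 and 0.289 across all alternatives). Of 46 T cell, NK cell and B cell markers, 3 were called higher (median difference 1.83), and they were genes that most leukocytes share, namely Cd37, Coro1a and Rac2 (5.38, 3.55 and 2.60). The first of these rests on non-fibrotic signals of 7.75, 1.88 and 2.99 and was 2.65 with signals under the absent level set to it. The T cell receptor subunit Cd3e measured 9.04, 9.03 and 9.53 against 7.74, 6.78 and 3.69 and the B cell marker Ms4a1 9.68, 6.96 and 10.57 against 6.84, 4.39 and 1.53, neither called (adjusted p = 0.137 and 0.12). The calls of Cd37, Coro1a and Rac2 were lost in every fit that left out an array other than non-fibrotic replicate 4, without which the list had 10 called.

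**Figure D4:**
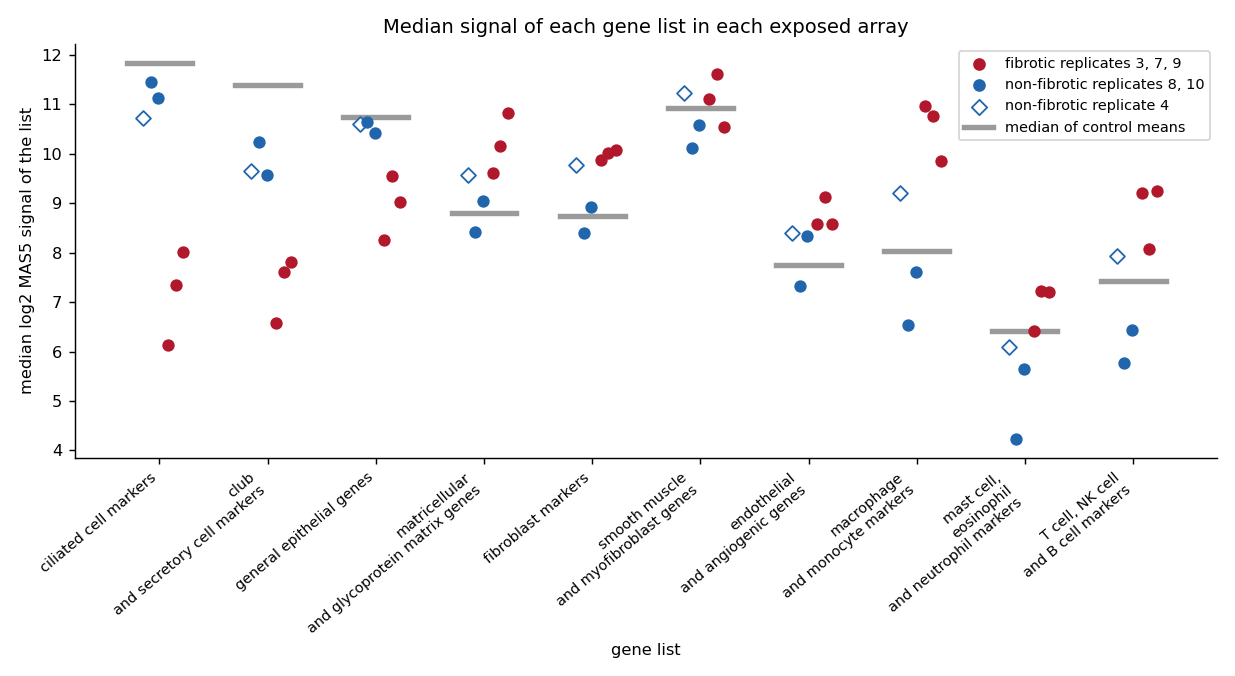
Median log2 MAS5 signal (y axis) over the measured genes of 10 lists (x axis) in each exposed array, with the median of the control means as a grey bar. Ciliated and secretory markers separate all fibrotic arrays (red) from all non-fibrotic ones (blue), while in the macrophage and lymphocyte lists non-fibrotic replicate 4 (open diamond) lies between replicates 8 and 10 and the fibrotic arrays.

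Of 53 interleukins and receptors, 5 were called higher (9.43%, against 1.47% of all genes) and 2 lower (3.77%, against 3.83%), with a median difference of 0.72, or 0.37 with signals under the absent level set to it. Il1b measured 11.81, 12.12 and 11.48 in fibrotic and 9.53, 6.71 and 5.54 in non-fibrotic bronchi, beside 7.64 to 12.30 in controls, so that fibrotic arrays were near the upper end of the control range and replicates 8 and 10 below it (difference 4.55, adjusted p = 0.00989). Its antagonist Il1rn measured 10.85, 10.61 and 10.12 against 7.68, 7.36 and 6.70 (difference 3.28, adjusted p = 0.00321). Il6 was under the absent level in every non-fibrotic array and measured 7.35, 11.19 and 7.14 in fibrotic bronchi, where replicate 7 stood well above the others, and it was at least 4.12-fold higher (adjusted p = 0.00989). Il18 and Il17ra were higher (2.95 and 1.52) and Il17re and Lifr lower (-1.73 and -2.28). None of the 5 higher genes remained called without fibrotic replicate 3, fibrotic replicate 7 or non-fibrotic replicates 8 or 10, and 2 remained without fibrotic replicate 9, while without non-fibrotic replicate 4 the list had 12 called higher. Of the 2 lower genes, 1, 2, 2, 1, 2 and 0 remained without fibrotic replicates 3, 7 and 9 and non-fibrotic replicates 4, 8 and 10.

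Among 47 chemokines and receptors, 1 was called higher (2.13%, against 1.47% of all genes) and 2 lower (4.26%, against 3.83%). The median difference was 1.10. Ccl9, a chemokine of monocytes, measured 12.06, 11.17 and 10.53 in fibrotic and 10.10, 7.13 and 6.83 in non-fibrotic bronchi (difference 3.23, adjusted p = 0.00795). Cxcl3, a neutrophil chemokine, was lower and varied widely among fibrotic arrays, with 5.60, 12.46 and 10.46 against 13.94, 14.55 and 14.45 and controls at 13.30 to 13.79 (difference -4.80, adjusted p = 0.00859). Ackr3, a scavenger receptor for Cxcl12, was lower by -1.73 (adjusted p = 0.00341). The call of Ccl9 was lost without any 1 of fibrotic replicates 3, 7 and 9 and non-fibrotic replicates 8 and 10, and without replicate 4 the list had 10 called higher. Of the 2 lower calls, 1, 2, 0, 1, 0 and 0 remained without fibrotic replicates 3, 7 and 9 and non-fibrotic replicates 4, 8 and 10.

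Antigen presentation and interferon response genes gave 3 called higher of 47 and none lower (median difference 1.18), and 16 had an adjusted p under 0.05. RT1-DMb, which helps to load peptide on class II molecules, measured 11.60, 12.11 and 11.09 in fibrotic and 9.81, 8.28 and 8.67 in non-fibrotic bronchi (difference 2.68, adjusted p = 0.00224). Irf8, a factor of myeloid cells, and RT1-DMa were the others (2.81 and 1.90, adjusted p = 0.00327 and 0.00604). Without fibrotic replicate 3 or fibrotic replicate 7 none was called, without non-fibrotic replicate 8 or 10 1 was, and without non-fibrotic replicate 4 the list had 11.

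Of 50 endothelial and angiogenic genes, 1 was called higher (2.0%, against 1.47% of all genes) and 1 lower (2.0%, against 3.83%), with a median difference of 0.84, or 0.48 with signals under the absent level set to it. Pecam1 measured 9.46, 9.21 and 9.74 in fibrotic and 8.57, 6.08 and 8.03 in non-fibrotic bronchi (adjusted p = 0.0432), and Kdr, the main receptor of vascular endothelial growth factor, differed by 0.07 (95% interval -0.53 to 0.67). Angptl4, induced by hypoxia and by fatty acids, was the gene called higher, with 12.07, 11.20 and 10.57 against 9.21, 5.91 and 7.73, beside 5.00 to 7.75 in controls (difference 3.67, adjusted p = 0.0067). Epas1, the hypoxia factor HIF-2 alpha, was the gene called lower. It measured 11.32, 12.16 and 11.53 against 13.45, 14.09 and 13.63 (difference -2.05, SE 0.24, adjusted p = 7.96e-05), and it was called in all 20 alternatives of the fit, while the call of Angptl4 was lost in every fit that left out an array other than non-fibrotic replicate 4, without which the list had 2 called higher and 1 lower.

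Hypoxia and glycolysis genes had 6 of 38 called higher and none lower (median difference 0.51). Mt1, a metallothionein, measured 11.75, 11.85 and 10.84 in fibrotic and 9.59, 9.00 and 8.12 in non-fibrotic bronchi (difference 2.57, adjusted p = 0.000887), and Mt2A differed by 2.65 (adjusted p = 0.00753). Slc2a3, a glucose transporter that macrophages also use, measured 8.98, 9.87 and 9.16 against 6.60, 5.77 and 6.69 (difference 2.98, adjusted p = 0.00133). Ndrg1 and Plin2, the latter a coat protein of lipid droplets, differed by 2.34 and 2.21 (adjusted p = 0.00253 and 0.00385), and Angptl4 was the sixth. No enzyme of glycolysis was among those called. Of the 6, 2, 2, 4, 6, 2 and 2 remained without fibrotic replicates 3, 7 and 9 and non-fibrotic replicates 4, 8 and 10, and Mt1 and Slc2a3 were called in all of these fits. The list had 8 called higher without non-fibrotic replicate 4.

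Immediate early genes, which respond within minutes to growth factors or handling, gave 2 called higher of 43 (4.65%, against 1.47% of all genes). The median difference was 0.83. Egr2, a zinc-finger factor, measured 11.10, 12.52 and 10.57 in fibrotic and 9.05, 6.51 and 7.26 in non-fibrotic bronchi (difference 3.79, adjusted p = 0.00183), and Ier5 11.93, 12.01 and 11.64 against 10.53, 9.38 and 10.46 (difference 1.73, adjusted p = 0.00147). The call of Egr2 was lost without fibrotic replicate 7, non-fibrotic replicate 8 or non-fibrotic replicate 10, and without non-fibrotic replicate 4 the list had 5 called higher.

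Of 61 cell cycle genes, 1 was called lower (1.64%, against 3.83% of all genes) and none higher, with a median difference of 0.53. It was Aurkb, a mitotic kinase, with 9.04, 8.88 and 8.69 in fibrotic and 10.47, 11.96 and 11.07 in non-fibrotic bronchi, beside 11.73 to 13.17 in controls (difference -2.30, adjusted p = 0.00108). None of 36 genes of ER stress and protein folding (median difference 0.46) and none of 47 genes of oxidative phosphorylation (median difference 0.01) was called by limma. Without non-fibrotic replicate 4, the cell cycle list had 2 called higher and 1 lower, the ER stress list 3 called higher and the oxidative phosphorylation list none. With all arrays 15 genes of the ER stress list had an unadjusted p under 0.05 and 2 of the oxidative phosphorylation list. Over all 31042 probe sets, 7192 did so. Ddit3, the factor CHOP of the stress response, measured 9.67, 10.02 and 8.98 against 8.71, 7.90 and 7.19 (difference 1.63, adjusted p = 0.0132), and was called without non-fibrotic replicate 4 (adjusted p = 0.00207, between 0.00207 and 0.0968 across all alternatives).

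Markers of tissues next to the bronchi differed in level and direction. Of 25 cartilage, nerve and mesothelial markers 9 were under the absent level in all 6 exposed arrays, as were 6 of 18 cardiac, blood and adipose markers. The cartilage markers Col2a1 and Acan measured 5.02, 2.49 and 2.43 and 4.32, 4.50 and 6.97 in fibrotic bronchi and 3.49, 4.50 and 4.08 and 5.83, 3.35 and 6.42 in non-fibrotic ones, while Matn1, a cartilage matrilin, measured 7.34, 7.43 and 6.99 against 5.32, 7.50 and 8.08 (adjusted p = 0.847). None of the 25 was called by limma, with or without non-fibrotic replicate 4. With all arrays 5 had an unadjusted p under 0.05, beside 7192 of all 31042 probe sets. The cardiac chains Myh6 and Myl7, which pulmonary veins of the rat also express, were not called (-0.03 and -2.50, the latter -0.27 with signals under the absent level set to it). Cardiac troponins T and I had differences of opposite sign. Tnnt2, cardiac troponin T, was bright and above all non-fibrotic arrays in fibrotic bronchi without being called, with 11.53, 10.72 and 11.65 against 9.56, 6.63 and 7.52, beside 7.95 to 11.18 in controls (difference 3.40, adjusted p = 0.0172, or 0.00391 without non-fibrotic replicate 4, and between 0.000324 and 0.243 across all alternatives). Tnni3, cardiac troponin I, was called lower, with 5.68, 5.79 and 6.78 in fibrotic and 9.61, 10.52 and 9.84 in non-fibrotic bronchi, beside 10.35 to 11.35 in controls (difference -3.91, adjusted p = 1.17e-05). Cfd, complement factor D, of adipose tissue and myeloid cells, was higher (4.11, or 2.46 with signals under the absent level set to it, adjusted p = 0.00945), a call lost in all but 1 of the fits that left out an array. Without non-fibrotic replicate 4 the cardiac, blood and adipose list had 2 called higher and 1 lower. Hbb, a globin of red blood cells, measured 10.74, 12.10 and 10.06 against 11.60, 10.21 and 11.55 and did not differ beyond the spread (difference -0.15, 95% interval -1.13 to 0.82).

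Several of the largest falls were of genes under the absent level in every fibrotic array, so that only a bound can be given. Kng2l1, a kininogen-like gene, measured 1.02, 5.06 and 2.58 in fibrotic and 10.85, 11.71 and 10.88 in non-fibrotic bronchi, so that it was lower by at least 24.7-fold (adjusted p = 3.53e-06). Ttpa, the tocopherol transfer protein, was at least 13.8-fold lower, with 3.00, 2.23 and 4.01 against 9.69, 10.56 and 10.68 (4.32e-06). Cyp4a1, a fatty acid hydroxylase, was at least 11.4-fold lower (6.66e-05) and Misp3 at least 10.7-fold (3.42e-05). Spaca9, Lrrc56, Spef2 and Rp1, among them genes of motile cilia and flagella, were lower by at least 8.84-fold, 7.06-fold, 5.42-fold and 3.04-fold. Cdhr4 fell by 6.63, or by 3.88 with signals under the absent level set to it, with 1 of its 3 fibrotic signals above that level, at 2.29, 2.51 and 7.95.

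Several of the largest rises were likewise of genes with non-fibrotic arrays under the absent level. Gpr15lg, a ligand of the receptor Gpr15, measured 8.15, 8.27 and 11.75 in fibrotic and 4.91, -0.62 and 3.24 in non-fibrotic bronchi, so that it was higher by at least 7.31-fold (adjusted p = 0.00306). Mrm3, a methyltransferase of mitochondrial ribosomal RNA, measured 8.76, 9.54 and 8.53 against 4.97, 3.43 and 4.64, with controls at 7.11 to 9.14, so that the non-fibrotic arrays lay under every control. It was higher by at least 5.36-fold (adjusted p = 0.000167) and called in all 20 alternatives of the fit. Dsn1, a kinetochore protein, was at least 2.75-fold higher with fibrotic signals of 7.81, 7.66 and 8.46 (0.000489). Prss35, Blnk, Fgr and Plek differed by 6.53, 6.49, 5.81 and 4.73, the last 3 being genes of blood cells. With signals under the absent level set to it, these differences were 3.68, 3.78, 3.17 and 3.62. Blnk was called in 8 of 20 alternatives, Fgr and Plek in 9 of 20 each, and Gpr15lg in 11 of 19. In Prss35, Blnk, Fgr and Plek, non-fibrotic replicate 4 measured 9.13, 9.55, 8.96 and 8.69, within 3 units of the fibrotic arrays, while replicate 8 was under the absent level.

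Genes that the study singled out by PCR or tabulated for fibrotic bronchi against controls were chosen on these samples and are given as values. Fn1, Tnc, Thbs2 and Plau of the PCR set were called here and Spp1, Tnn and Cldn18 were not. Cldn18, a claudin, measured 9.81, 11.17 and 9.56 in fibrotic and 11.35, 10.18 and 11.02 in non-fibrotic bronchi, beside 6.79 to 9.04 in controls, so that both exposed groups were above the controls (difference -0.67, 95% interval -1.87 to 0.53). Bcat1, an enzyme of branched-chain amino acids, measured 11.78, 11.23 and 11.27 against 9.62, 7.38 and 7.65, with controls at 5.19 to 7.31 (difference 3.21, adjusted p = 0.00274). Gpr155 measured 5.93, 7.55 and 6.38 against 11.77, 12.48 and 12.16 (difference -5.51, adjusted p = 3.34e-06). Crabp2, which carries retinoic acid, and Lamb3, a laminin chain of epithelium, were above all non-fibrotic arrays without being called, with 9.33, 10.19 and 11.16 against 8.63, 1.42 and 6.25 and 10.62, 10.79 and 10.82 against 9.92, 5.77 and 7.99 (adjusted p = 0.0189 and 0.034). In both, replicate 4 was within 1 unit of the lowest fibrotic array. Leaving replicate 4 out gave adjusted p-values of 0.000984 and 0.00252, with ranges of 0.000984 to 0.0973 and 0.0023 to 0.151 over the alternatives.

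**Figure D5:**
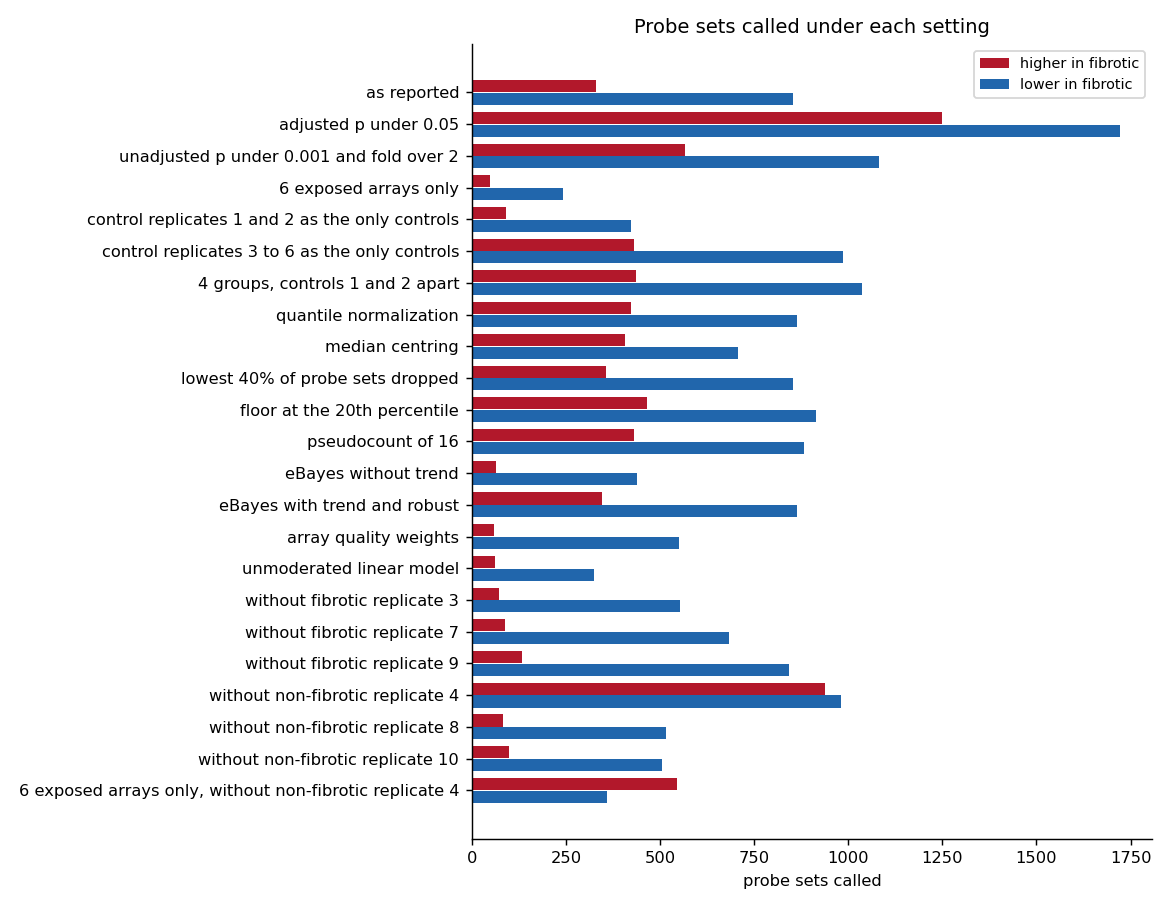
Number of probe sets called at an adjusted p under 0.01 (x axis) as reported and under each alternative setting (y axis), red for higher and blue for lower in fibrotic bronchi. Lower calls range from 243 in the fit of the 6 exposed arrays to 1722 at an adjusted p under 0.05, and higher calls from 49 to 1248 in the same 2 settings.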

How the data were processed

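RNA of laser-captured bronchi was amplified from 20 ng and hybridized to rat 3′ expression arrays, although the design text in the labels names another array type. The deposited values are linear MAS5 signal intensities that the authors scaled per array, the trimmed mean being the same on every array. All columns were of single arrays, and 0 columns lacked a sample. Of 31099 probe sets, 57 manufacturer's controls were left out. The log2 intensity was taken with no pseudocount. Of those tested, 20826 probe sets had 1 gene symbol, 436 several and 9780 none. For 20758 of the 20826 the gene ID was matched to RefSeq, whose symbol was then used.

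The difference was fitted with limma 3.58.1 (R 4.3.3, lmFit and eBayes with a trend) in a model of 3 groups and 12 arrays, in which controls lend only their spread. Lists were described by counts and medians, with no set test. The script was tested on simulated data. Genes named were the called members of each list with the largest differences, defining cell type markers, the largest changes over all genes and genes that the study singled out. Other list members named, and Cfap144, were chosen after their values were seen. Members and lists were chosen with earlier results of these data known. Alternatives changed the threshold, the arrays, the scaling, the treatment of low signals, the variance model and the choice of probe set. The fit of exposed arrays without non-fibrotic replicate 4 was chosen after seeing the data. The depth of an array is not counted in reads, and precision is limited by the number of arrays.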

Additional observations from a re-analysis of the deposited data

Results flagged for a closer look

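Each of the 6 control arrays was compared with the others for 193 measures, namely the named genes and array measures, and in 19 of them 1 array lay farther from the rest than Dixon's critical value of 0.625 for 6 samples. Chance alone flags about 1 in 20 groups. None of these arrays entered the difference between fibrotic and non-fibrotic bronchi, although they entered its estimate of the spread, and groups of 3 arrays were not tested in this way. Control replicate 2 had a difference between 3′ and 5′ probe sets of GAPDH of 2.03, against 0.70 to 1.16 in the others (Dixon ratio 0.657). Control replicate 1 was below the other controls in the log2 signal of Aqp4 (11.42, ratio 0.674), Bcat1 (5.19, ratio 0.695), Bmp5 (8.76, ratio 0.642), Drc1 (9.60, ratio 0.720), Krt8 (11.72, ratio 0.651) and Sox2 (10.55, ratio 0.722). Control replicate 1 was above the other controls in the log2 signal of Col3a1 (13.98, ratio 0.667), Cybb (10.07, ratio 0.630) and Itgb3 (10.76, ratio 0.645). Control replicate 2 was below the other controls in the log2 signal of Dcn (7.70, ratio 0.800), Igfbp3 (9.97, ratio 0.712) and Myh11 (10.57, ratio 0.737). Control replicate 2 was above the other controls in the log2 signal of Foxj1 (12.94, ratio 0.631) and Gstm2 (13.40, ratio 0.766). Control replicate 5 was below the other controls in the log2 signal of Il1rn (6.61, ratio 0.652), Itga6 (9.23, ratio 0.694), Ms4a1 (0.28, ratio 0.691) and Srgn (8.76, ratio 0.644). The cause was not tested.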

How the results depend on the processing

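As reported, 331 probe sets were higher and 854 lower in fibrotic bronchi. At an adjusted p under 0.05 these counts were 1248 and 1722. At an unadjusted p under 0.001 with a fold over 2, 566 were higher. The 6 exposed arrays alone gave 49 and 243, and control replicates 1 and 2 as the only controls gave 92 and 422. Without the trend the counts were 65 and 439, with array quality weights 59 and 551, and in the unmoderated linear model 61 and 325. Leaving out 1 exposed array at a time gave 72 to 939 higher and 505 to 982 lower, the most in both directions without non-fibrotic replicate 4. The 6 exposed arrays without that array, an alternative chosen after seeing the data, gave 545 and 358. The cause of these shifts was not tested, other than that fewer arrays entered some fits. Median centring moved the median difference of all genes from 0.0004 to 0.0833 and gave 407 higher and 706 lower. Counts under the other alternatives stayed within 1.5 times. No paired analysis was possible because the labels do not tie arrays to rats.

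Of 190 named genes, 179 kept their sign under every alternative. The 11 that did not were Adam8 and Cdh1, called with their brightest probe set and of the opposite sign in the second (0.39 and 0.69), and 9 that were never called. For these, a second probe set gave -0.059 for Acan, 0.39 for Col2a1 and -0.51 for Kdr, for which the mean of probe sets gave -0.22. Array quality weights gave -0.34 for Acan, -0.048 for Des and -0.0085 for Kdr, and a floor at the 20th percentile gave -0.21 for Acan. Median centring gave 0.034 for Myh11 and 0.053 for Myh6, and quantile normalization 0.041 for Myh6. The exposed arrays without non-fibrotic replicate 4 gave 0.087 for Hbb, -0.54 for Matn1 and 0.17 for Myh6. Leaving out 1 array gave -0.86 to 0.67 for Acan, -0.46 to 0.69 for Des, -0.72 to 0.30 for Hbb, -0.079 to 0.26 for Kdr, -0.82 to 4.17 for Krt5, -0.54 to 0.84 for Matn1, -0.30 to 0.27 for Myh11 and -0.73 to 0.47 for Myh6. Signals under the absent level limit the size of a difference to a bound.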
